A study of Mus musculus with 6 samples.

Results

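Protein disulfide isomerases are the enzymes of the endoplasmic reticulum (ER) that form, break and rearrange the disulfide bonds of proteins entering the secretory pathway. Each catalytic domain is built on the thioredoxin fold and carries a pair of cysteines that is oxidised or reduced as a substrate bond is exchanged. The oxidase Ero1a re-oxidises the isomerases and passes the electrons to oxygen. Several of these genes are known to be induced when unfolded proteins accumulate in the ER, through the transcription factors ATF6 and XBP1.

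The genes described here are 10 members of this system, P4hb, Pdia3, Pdia4, Pdia5, Pdia6, Txndc5, Erp44, Erp29, Tmx1 and Ero1a, chosen by name out of 53465 genes in the count table and matched by Ensembl identifier through GENCODE M21, where Ero1a is listed as Ero1l. All 10 passed the filter on low counts that left 8200 genes for testing. The libraries are ribosome profiling of the mouse ovarian cancer cell line ID8: ribosomes were held on the mRNA with cycloheximide (100 µg/mL for 2 minutes), unprotected RNA was digested and the protected footprints were sequenced. There were 3 libraries labelled KO, from cells given a guide RNA against Nat10 (sgNat10), and 3 labelled WT, from cells given a control guide (sgNC). Both groups are ID8 cells that received a guide, and the labels do not say whether the cells were clones or pools, or whether each library is its own culture. The p-values therefore reflect library-to-library spread, which may be technical. That spread was wide. Over the tested genes, log2 levels correlated at r = 0.571 to 0.705 between libraries of the same group. Between libraries of different groups r was 0.543 to 0.630, an overlapping range. RNA-seq is not used here, so a lower mRNA level and fewer ribosomes per mRNA cannot be told apart, nor can fewer cells of a type and less RNA per cell.

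Total gene counts ran from 2234305 to 3126208 in the KO libraries and from 1687466 to 2148715 in the WT libraries. The number of genes per count peaked at a modal count of 42 to 60 in the KO libraries and 15 to 39 in the WT libraries, and a count divided by its library's modal count is called molecule equivalents below. Whether the modal count is the number of copies per molecule was not tested. The targeted gene, Nat10, averaged 106 ± 43.1 CPM (counts scaled to a common library size after TMM normalisation) in the KO libraries and 112 ± 53.1 CPM in the WT libraries (SD, n = 3 each), a difference that was not detectable (log2 fold change -0.074, 95% interval -1.09 to 0.94), so the groups are named here by their labels and not by a measured loss of Nat10. Of 9 epithelial and mesothelial markers 6 were tested, with Epcam at 0 in every library. Their summed level was 4180 to 4827 CPM in the KO libraries and 5885 to 6337 CPM in the WT libraries, and edgeR called the keratins Krt18 and Krt19 lower and the mesothelial protein Msln higher. Wt1 and Upk3b overlapped between the groups and were not called. Krt8 had 1, 74 and 251 counts in the KO libraries, against 413, 346 and 293 in the WT libraries, and was not called (log2 fold change -2.42, SE 0.87; edgeR adjusted p = 0.51). Of 7 leukocyte and 5 endothelial markers none passed the filter, with summed levels of 0 to 1.86 CPM in the KO libraries and 0 to 14.5 CPM in the WT libraries over the 2 lists taken one at a time. The 6 fibroblast markers summed to 4.96 to 18.4 CPM in the KO libraries and 42.8 to 85.4 CPM in the WT libraries, and Thy1 was at 0 throughout. Col1a1, the only one tested, had 1, 38 and 6 counts in the KO libraries, against 120, 171 and 74 in the WT libraries. It was not called by edgeR but was by DESeq2. The part of these markers in the results below was not tested.

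The classical catalytic stretch was counted in the coding sequence of each member. In frame, the 4 codons TGN, GGN, CAN and TGN, with C or T at the N after each TG and CA, spell the classical active site with its 2 cysteines. This stretch occurred in 37 of 21526 mouse coding sequences (0.172%), and 6 of the 10 members held it, 13 times in all. Pdia4 and Txndc5 held 3 copies each, P4hb, Pdia3 and Pdia6 held 2 each, and Pdia5 held 1. Erp44, Erp29, Tmx1 and Ero1a held none, which says only that these letters are not in their coding sequences. Sites spelled with other codons were not sought in any member, so these are not full counts of active sites. Of the 4 most abundant members, 8 stretches are given with the active-site codons in capitals and 9 coding bases on each side.
Pdia4 site 2: gccccgtggTGTGGACACTGCaagaaactt
Pdia4 site 3: gcaccctggTGTGGGCACTGCaagcagcta
Pdia6 site 1: gcaccatggTGTGGTCACTGCcagaggtta
Pdia6 site 2: gctccgtggTGTGGACACTGCaaaaacctg
P4hb site 1: gccccgtggTGTGGCCACTGCaaagctctg
P4hb site 2: gccccttggTGTGGTCACTGCaagcagcta
Pdia3 site 1: gccccctggTGTGGACATTGCaagaggctt
Pdia3 site 2: gccccttggTGTGGCCACTGTaagaatctg
In GRCm38 the capital stretches of Pdia4 shown lie on the minus strand at chr6:47803898-47803909 (exon 5 of 10) and chr6:47796752-47796763 (exon 10). Those of Pdia6 lie on the plus strand at chr12:17273946-17273957 (exon 3 of 13) and chr12:17278628-17278639 (exon 6). P4hb has them on the minus strand at chr11:120571705-120571716 (exon 2 of 11) and chr11:120562523-120562534 (exon 9), and Pdia3 on the plus strand at chr2:121422450-121422461 (exon 2 of 13) and chr2:121434867-121434878 (exon 10). The counts cover whole genes, so footprints on these stretches themselves were not measured apart.

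Over the whole family no gene passed the main test between the libraries labelled KO and WT. By edgeR's quasi-likelihood test with Benjamini-Hochberg adjustment over all 8200 genes, 0 of 10 members were called at an adjusted p under 0.05, against 0.402% of all tested genes (0.22% lower and 0.183% higher). At an unadjusted p under 0.05, 2 members were lower in the KO libraries and none higher, beside 3.79% of all tested genes lower, 2.7% higher and 6.49% in either direction. The 2 were Pdia4 and Pdia6, which DESeq2 and limma-voom both called lower, beside 1.59% and 0.598% of all tested genes. No member was called higher by either tool, beside 1.3% and 0.537%. They were also the only members whose KO and WT libraries did not overlap, beside 7.93% of all tested genes not overlapping in that direction, 6.94% in the other and 14.9% in either. Among the 818 genes that averaged at least 200 CPM, as both of them do, 17.1% did not overlap with KO lower and 13.7% were lower at an unadjusted p under 0.05. Of these 818, DESeq2 called 101 and edgeR 26 in either direction, so calls were more frequent at this level than over all tested genes. The median log2 fold change, KO minus WT, was -0.36 over the 10 members and -0.016 over all tested genes, and 9 of the 10 were below 0, beside 51% of all tested genes and 58.4% of those averaging at least 200 CPM. The members' median was -0.11 without KO replicate 2 and -0.16 without WT replicate 2, and 7 of the 10 were below 0 when only library totals set the scale.

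**Figure D1:**
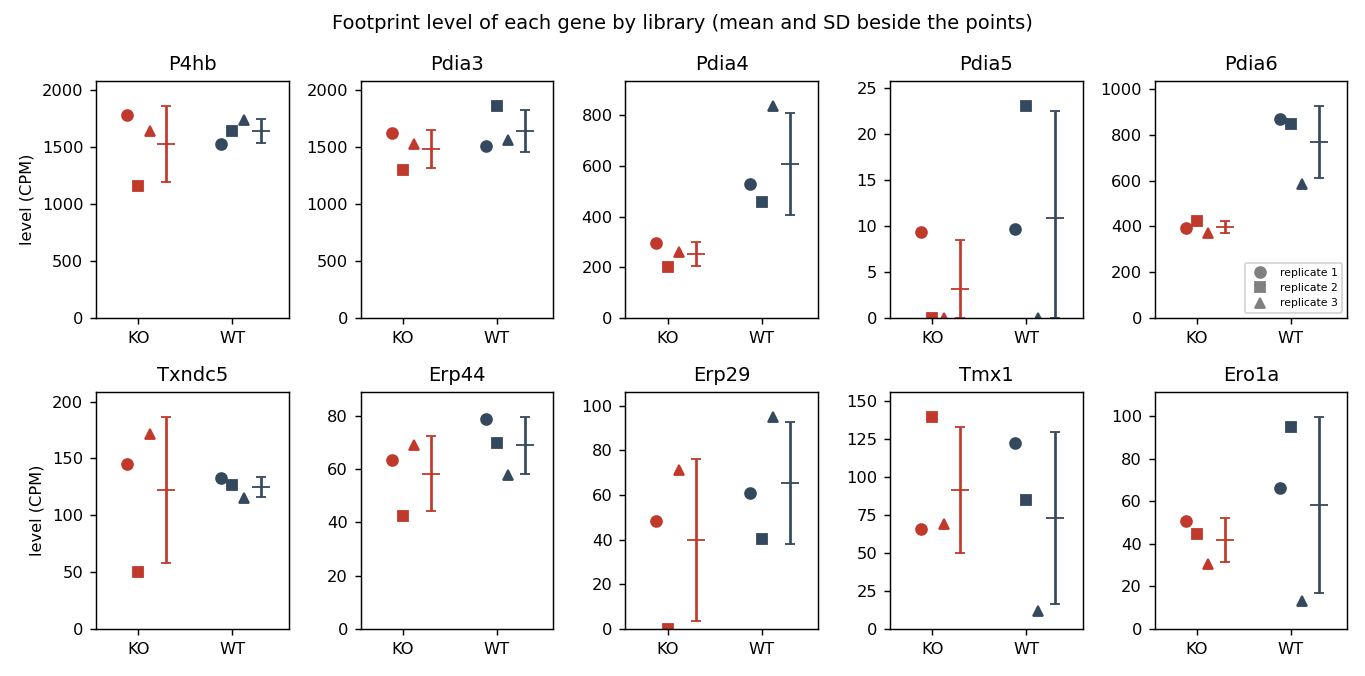
Normalised footprint level (CPM, linear axes from 0) of each of the 10 genes in the 3 KO libraries (red, left) and the 3 WT libraries (dark, right); marker shapes give the replicate number, and the bar beside the points is the mean with its SD (n = 3). The groups are apart for Pdia4 and Pdia6 and overlap for the other 8 genes.

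Pdia4 (ERp72), the largest isomerase of the set, had the smallest p of the family. It lies on the minus strand of chromosome 6 (47796141 to 47813430 in GRCm38), and its levels were 295, 199.96 and 263 CPM in KO libraries, against 527, 457 and 834 CPM in WT libraries. The highest KO library lay well under the lowest WT library, and WT replicate 3 stood above the other WT libraries. Means were 253 ± 48.3 CPM in the KO libraries and 606 ± 201 CPM in the WT libraries (SD, n = 3 each), a ratio of 0.417. The log2 fold change was -1.26 (SE 0.27, 95% interval -1.84 to -0.69; edgeR adjusted p = 0.064), a near miss of the threshold, which ranked 41 among the 8200 p-values. DESeq2 gave an adjusted p of 0.00027 and limma-voom 0.0010 for the same gene, both below the threshold. In molecule equivalents, which are not scaled for library size, Pdia4 had 18.0, 10.2 and 14.1 in the KO libraries, against 57.8, 43.6 and 37.0 in the WT libraries. Whole libraries summed to 60506.5, 48571.8 and 52103.5 molecule equivalents in the KO libraries, against 112497.7, 102319.8 and 46441.7 in the WT libraries. The totals of WT replicates 1 and 2 were thus above every KO total. That the Pdia4 values did not overlap in this unit is therefore not read as further support.

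Pdia6 (P5), which works with the chaperone BiP and binds sensors of ER stress, differed in the same direction. On the plus strand of chromosome 12 (17266545 to 17284770), it had 394, 423 and 372 CPM in KO libraries, against 867, 847 and 586 CPM in WT libraries. The KO libraries lay close together, and WT replicate 3 was the WT library nearest to them. Means were 396 ± 26.0 CPM in the KO libraries and 767 ± 157 CPM in the WT libraries (SD, n = 3 each), a ratio of 0.517. The log2 fold change was -0.95 (SE 0.22, 95% interval -1.41 to -0.49; edgeR adjusted p = 0.074), and DESeq2 gave an adjusted p of 0.00026 and limma-voom 0.0041. Annotated exons of Pdia6 share 50 bases with Atp6v1c2 on the other strand, which had no count in any library.

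WT replicate 3 pulled these 2 genes in opposite ways, being the highest WT library for Pdia4 and the lowest for Pdia6. Without it the log2 fold change was -0.96 for Pdia4 (edgeR adjusted p = 0.42) and -1.11 for Pdia6 (0.11). Over the 6 fits that left out 1 library each, the log2 fold change stayed between -1.43 and -0.96 for Pdia4 and between -1.11 and -0.85 for Pdia6. Neither was called by edgeR in any of those 6 fits, where adjusted p ran from 0.076 to 0.42 for Pdia4 and from 0.11 to 0.53 for Pdia6. With the full set of libraries, both were called lower on molecule equivalents, beside 0.878% of all genes lower and 0.512% higher. Both were also called lower with no count filter, beside 0.328% of genes lower and 0.383% higher. With the replicate number as a block Pdia4 alone was called lower, beside 0.232% of genes.

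**Figure D2:**
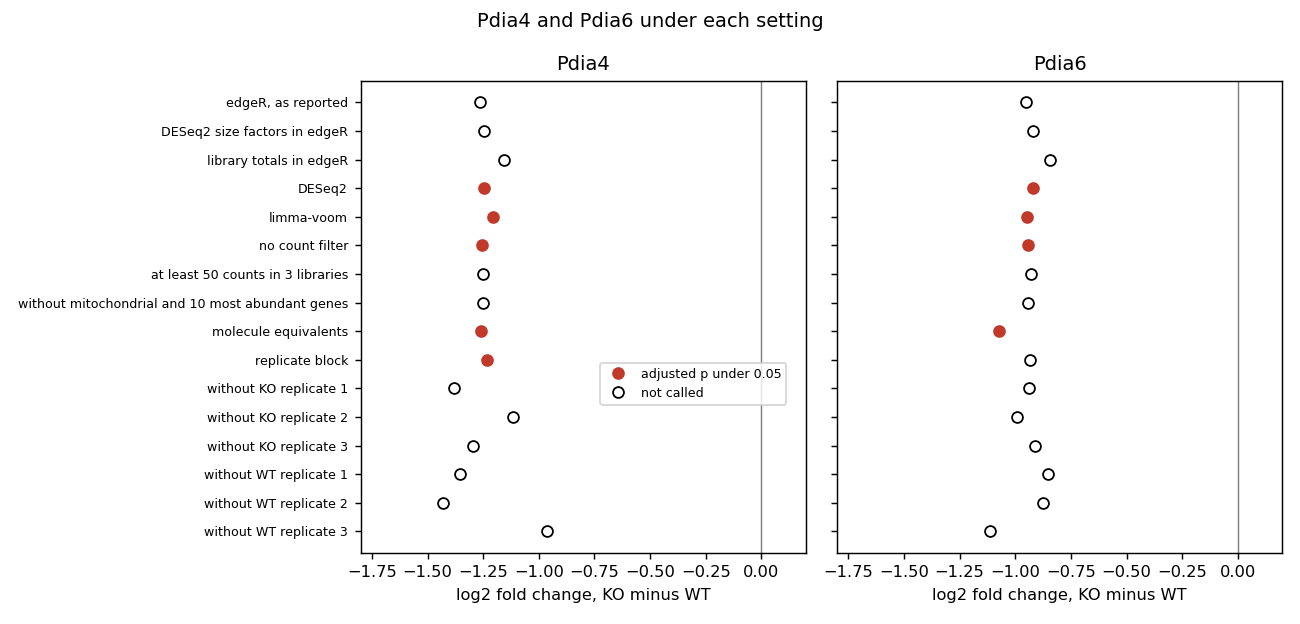
Log2 fold change, KO minus WT, of Pdia4 (left) and Pdia6 (right) as reported and under each of 15 other settings, filled where the adjusted p was under 0.05. Every point lies below 0; Pdia4 was called in 5 and Pdia6 in 4 of the 15 settings, and none of the fits without 1 library called either.

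The 2 most abundant isomerases showed no detectable difference. P4hb, the archetypal isomerase and also a subunit of collagen prolyl 4-hydroxylase, lies on the minus strand of chromosome 11 (120560298 to 120573253) and had 1780.5, 1152 and 1636.5 CPM in KO libraries, against 1526, 1637 and 1736 CPM in WT libraries. Only KO replicate 2 stood below the WT range. The log2 fold change was -0.10 (SE 0.18, 95% interval -0.49 to 0.29; edgeR adjusted p = 1.0), and it was 0.073 without KO replicate 2 and 0.0053 when only library totals set the scale, so its sign is not settled.

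Pdia3 (ERp57), which works on glycoproteins with calnexin and calreticulin and is part of the MHC class I peptide loading complex, lies on the plus strand of chromosome 2 (121413775 to 121438687). It had 1621, 1303 and 1526 CPM in KO libraries, against 1509.7, 1857 and 1559 CPM in WT libraries. The groups overlapped, and KO replicate 2 was again the lowest library. The log2 fold change was -0.15 (SE 0.16, 95% interval -0.50 to 0.21; edgeR adjusted p = 1.0). P4hb and Pdia3 averaged 109 and 110 molecule equivalents, the deepest of the family, and their intervals leave out a change as large as the estimates for Pdia4 and Pdia6.

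**Figure D3:**
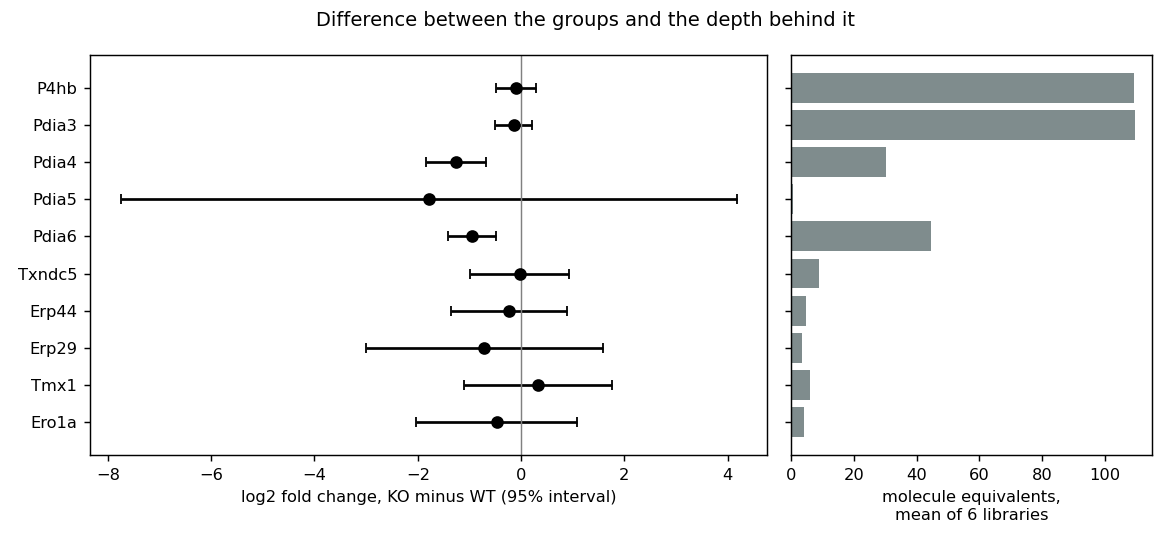
Left, log2 fold change, KO minus WT, of the 10 genes with its 95% interval from the edgeR fit; right, mean molecule equivalents over the 6 libraries. Intervals are narrow for P4hb, Pdia3, Pdia4 and Pdia6, which average 30.1 to 110 molecule equivalents, and wide for the other 6, which average at most 8.73.

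The difference in balance between the isomerases can be read within each library, where scaling between libraries plays no part. Per 100 counts of P4hb, Pdia4 had 16.6, 17.4 and 16.1 counts in the KO libraries, against 34.5, 27.9 and 48.1 in the WT libraries. The KO ratios lay close together and all below the lowest WT ratio. Per 100 counts of P4hb, Pdia6 had 22.1, 36.8 and 22.7 counts in the KO libraries, against 56.8, 51.7 and 33.8 in the WT libraries, so here KO replicate 2 and WT replicate 3 overlapped. Per 100 counts of Pdia3, Pdia6 had 24.3, 32.5 and 24.3 counts in the KO libraries, against 57.4, 45.6 and 37.6 in the WT libraries, and these groups did not overlap. Pdia3 itself had 91.0, 113 and 93.3 counts per 100 of P4hb in the KO libraries, against 98.9, 113 and 89.8 in the WT libraries, nearly the same range. These ratios were picked with the levels known and carry no test.

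**Figure D4:**
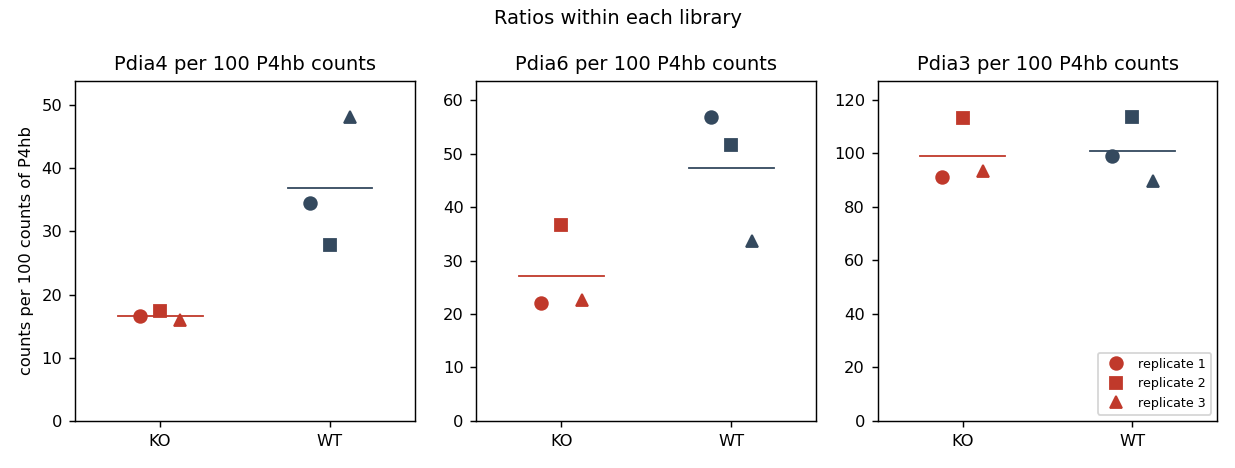
Counts of Pdia4, Pdia6 and Pdia3 per 100 counts of P4hb in each library, KO (red, left) and WT (dark, right), with the mean of each group as a line; axes start at 0. Pdia4 ratios are 16.1 to 17.4 in the KO libraries and 27.9 to 48.1 in the WT libraries, while Pdia3 ratios cover nearly the same range in both.

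Summed over the 10 genes, the family took 0.451%, 0.351% and 0.434% of all counts in the KO libraries, against 0.478%, 0.488% and 0.478% in the WT libraries. All 3 KO shares lay below the WT shares. Without Pdia4 and Pdia6 the summed level of the other 8 was 3784, 2731 and 3575 CPM in KO libraries, against 3507, 3935 and 3588 CPM in WT libraries, and these overlapped. Pdia4 and Pdia6 together made up 15.4%, 18.6% and 15.1% of the family's counts in the KO libraries, against 28.4%, 24.9% and 28.4% in the WT libraries. P4hb and Pdia3 together made up 76.0%, 73.2% and 75.1% in the KO libraries, against 61.9%, 66.7% and 65.8% in the WT libraries. These percentages are largely what Pdia4 and Pdia6 leave of the family. Pdia4 and Pdia6 were set apart with their levels known. The overlap of the other 8 and the shift in shares therefore follow in part from that choice, and carry no test.

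Levels were set against each other per kilobase of coding sequence. In the KO libraries P4hb stood at 995 ± 215 and Pdia3 at 977 ± 108 CPM per kb, followed by Pdia6 at 296 ± 19.4 and Pdia4 at 131 ± 25.1 (SD, n = 3). In the WT libraries Pdia3 stood at 1082 ± 124 and P4hb at 1067 ± 68.7 CPM per kb, followed by Pdia6 at 573 ± 117 and Pdia4 at 315 ± 104. P4hb and Pdia3 could not be ordered in either group, as their libraries overlapped, whereas Pdia6 lay below both and above Pdia4 in every library of each group. Pdia4 stood clear of the genes below it in the WT libraries and overlapped Tmx1 in the KO libraries. Below them, Txndc5, Tmx1, Erp29, Erp44 and Ero1a followed at 30.0 to 109 CPM per kb in the KO libraries and 41.7 to 99.7 in the WT libraries, each overlapping its neighbours in the order. Pdia5 was lowest in both groups.

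Txndc5, an isomerase with several catalytic domains, varied more between KO than between WT libraries. Its levels were 145, 50.1 and 172 CPM in KO libraries, against 133, 127 and 116 CPM in WT libraries. KO replicate 2 held 117 counts, or 2.54 molecule equivalents, while the other KO libraries were above every WT library. The log2 fold change was -0.030 (SE 0.44, 95% interval -0.98 to 0.92) and became 0.35 without KO replicate 2. Its annotated exons share 224 bases with Bmp6 and 311 with an antisense gene, neither of which had a count in any library.

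The remaining members had few molecule equivalents and wide intervals, and no difference was detectable at this depth. Erp44, which returns unassembled proteins and Ero1a from the Golgi to the ER, had 63.6, 42.4 and 69.2 CPM in KO libraries, against 79.0, 70.0 and 57.8 CPM in WT libraries (log2 fold change -0.24, SE 0.53, 95% interval -1.37 to 0.89). The groups overlapped. Tmx1, a membrane-anchored isomerase, had 65.9, 139 and 69.2 CPM in KO libraries, against 122, 84.9 and 11.6 CPM in WT libraries, and was the only member with a log2 fold change above 0 (0.33, SE 0.67, 95% interval -1.10 to 1.76). The low value came from WT replicate 3, with 20 counts or 0.513 molecule equivalents, and without that library the log2 fold change of Tmx1 was -0.18.

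Ero1a, the oxidase, had 50.7, 44.5 and 30.4 CPM in KO libraries, against 66.3, 94.9 and 13.3 CPM in WT libraries (log2 fold change -0.47, SE 0.73, 95% interval -2.03 to 1.08). WT replicate 3 was again lowest, at 23 counts, so the WT libraries lay on both sides of the KO libraries. Erp29, a chaperone of the family that lacks the catalytic cysteine pair, had 48.4, 0 and 71.0 CPM in KO libraries, against 60.8, 40.5 and 94.8 CPM in WT libraries (log2 fold change -0.71, SE 1.07, 95% interval -3.001 to 1.58). A count of 0 in KO replicate 2, where the modal count was 46, allows up to 1.28 CPM by counting error alone. Annotated exons of Erp29 share 2210 bases with Naa25 on the other strand, and since no strand setting is given in the sources used here, their reads cannot be told apart; Naa25 had 270, 318 and 397 counts in the KO libraries, against 144, 295 and 521 in the WT libraries.

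Pdia5, an isomerase of low abundance here, had counts of 24, 0 and 0 in the KO libraries, against 16, 46 and 0 in the WT libraries. It averaged 0.638 molecule equivalents. Its fitted log2 fold change of -1.79 (95% interval -7.75 to 4.17) enters the median and the count below 0 given above, and is not read as a difference.

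Promoters of Pdia4 and Pdia6 are given because the KO libraries of both genes lay below their WT libraries and because ATF6 is known to act through the ER stress response element, CCAAT and CCACG with 9 bases between them. Sequences run from 250 bases before to 50 after the transcription start in GRCm38.p6 (RefSeq), 5′ to 3′ on the gene's strand, with every CCAAT and CCACG of either strand in capitals; 9 of the 10 members had an entry. The first lies at chr6:47813463-47813762 (minus strand) and the second at chr12:17266339-17266638 (plus strand). P4hb, for which no difference was detectable, follows for comparison, from chr11:120573204-120573503 (minus strand).
Pdia4: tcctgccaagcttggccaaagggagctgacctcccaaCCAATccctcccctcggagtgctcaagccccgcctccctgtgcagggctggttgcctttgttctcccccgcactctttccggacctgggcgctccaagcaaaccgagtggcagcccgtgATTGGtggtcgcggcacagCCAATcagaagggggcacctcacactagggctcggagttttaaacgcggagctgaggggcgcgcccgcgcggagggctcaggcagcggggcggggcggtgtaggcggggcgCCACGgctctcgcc
Pdia6: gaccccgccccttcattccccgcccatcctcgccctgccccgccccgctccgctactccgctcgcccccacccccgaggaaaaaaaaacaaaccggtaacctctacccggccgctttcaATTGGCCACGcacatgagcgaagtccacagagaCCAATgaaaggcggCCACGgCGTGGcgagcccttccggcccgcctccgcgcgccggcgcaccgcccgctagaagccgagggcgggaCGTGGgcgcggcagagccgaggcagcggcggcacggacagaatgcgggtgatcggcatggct
P4hb: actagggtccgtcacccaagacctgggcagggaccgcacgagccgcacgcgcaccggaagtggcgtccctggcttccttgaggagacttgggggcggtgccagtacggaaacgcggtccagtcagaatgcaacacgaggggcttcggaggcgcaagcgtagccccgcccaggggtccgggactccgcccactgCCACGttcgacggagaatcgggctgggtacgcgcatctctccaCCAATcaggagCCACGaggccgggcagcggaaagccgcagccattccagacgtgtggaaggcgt
The full element, on either strand, was found in the promoters of 37 of 27025 genes (0.137%). Among the members it was found in Pdia6 alone, starting 98 bases before the start site. With the last base of CCACG free it was found in 0.429% of genes and in 3 members, Pdia3, Pdia4 and Pdia6, of which the letters are as follows.
Pdia6: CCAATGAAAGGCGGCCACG
Pdia4: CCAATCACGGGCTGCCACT
Pdia3: CCAATCGGCGGCTGCCACA
The match in Pdia4 is on the strand opposite the gene and spans 1 of the CCAAT boxes. Footprint levels of Pdia3 overlapped between the groups. A further motif sought on either strand, TGACGTGG, was found in the promoters of 193 of 27025 genes (0.714%). Among the members Txndc5 alone held it, and the footprint levels of Txndc5 overlapped between the groups. The promoters of Hspa5, Hsp90b1 and Calr each held the full element, and Hyou1 and Manf, also sought, had no promoter entry. These genes were looked up with their levels known, the KO libraries of each lying below its WT libraries. No other gene outside the members was looked up by name. Whether the element bears on the footprint levels was not tested. A match is a description of these letters and no measurement of factor binding.

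NAT10 has been reported to acetylate cytidine in mRNA at repeats of CNN. The longest run of consecutive CNN triplets was 7 in the coding sequence of Pdia4, 10 in that of Pdia5, 5 in those of Pdia6, P4hb, Pdia3, Erp44 and Erp29, 6 in Txndc5 and 4 in Tmx1 and Ero1a. Over 8071 tested genes the median was 6, and 39.3% of these genes had a run of at least 7. Runs were sought in any reading frame of the coding sequence only, and untranslated regions were not scanned. Whether these runs bear on the footprint levels was not tested.

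Genes of the same pathway were taken from lists of related genes. Other proteins of the isomerase family were called in no case: of 13 listed, 8 were tested, 3 below 0 and 5 above (median log2 fold change 0.14), with 0 at an unadjusted p under 0.05 by edgeR and 0 called by DESeq2, and 5 had no count in any library, among them the pancreatic Pdia2 and the testis protein Pdilt. Dnajc10 (ERdj5), a reductase that works with BiP in ER-associated degradation, averaged 162 ± 52.1 CPM in the KO libraries and 155 ± 36.4 CPM in the WT libraries (SD, n = 3 each). Txndc15, another thioredoxin-like membrane protein, had a log2 fold change of 0.61 (SE 0.55). The membrane isomerase Tmx3 had 115, 67.7 and 120 CPM in KO libraries, against 140, 152 and 124 CPM in WT libraries, not overlapping but not called (log2 fold change -0.46, SE 0.39; edgeR adjusted p = 1.0). Of 8 listed oxidants and peroxidases of the ER 4 were tested, 1 below 0 and 3 above (median 0.37), with 0 at an unadjusted p under 0.05 and 0 called by edgeR or DESeq2. Prdx4, a peroxiredoxin that oxidises isomerases, had 128, 268 and 141 CPM in KO libraries, against 92.4, 127 and 161 CPM in WT libraries, which overlapped. The second Ero1 oxidase, listed as Ero1lb, had 1 count in the KO libraries together and 24 in the WT libraries, 23 of them in WT replicate 1.

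Partners that act with the isomerases went both ways, 7 below 0 and 4 above among 11 tested (median -0.33). By edgeR 2 were called lower, the chaperones BiP and GRP94, beside 0.22% of all tested genes. DESeq2 called 3 lower, these 2 and Calr, beside 1.59%. All 3 average at least 200 CPM, where edgeR called 26 and DESeq2 101 of 818 genes in either direction. Hspa5 (BiP), which binds Pdia6, had 2286, 2059 and 2188 CPM in KO libraries, against 4109, 4183 and 4573 CPM in WT libraries (log2 fold change -0.98, SE 0.13; edgeR adjusted p = 0.0040). Hsp90b1 (GRP94) had 1630.3, 1619 and 1533 CPM in KO libraries, against 2909, 2813 and 2694 CPM in WT libraries (-0.82, SE 0.14; edgeR adjusted p = 0.019). Both estimates were close to that for Pdia6 and had smaller standard errors. Over the fits without 1 library, the edgeR adjusted p of Hspa5 ran from 0.0051 to 0.070, with the call lost without WT replicate 2 or WT replicate 3. That of Hsp90b1 ran from 0.050 to 0.18, with the call lost in all 6 fits.

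Calr, the lectin chaperone that recruits Pdia3 to glycoproteins, had 2008, 1533 and 2041 CPM in KO libraries, against 3303, 3067 and 2699 CPM in WT libraries, which did not overlap (log2 fold change -0.70, SE 0.16; edgeR adjusted p = 0.074, DESeq2 adjusted p = 0.0010). Its membrane-bound counterpart Canx overlapped between groups, at 1581 ± 124 CPM in the KO libraries and 1657 ± 501 CPM in the WT libraries (SD, n = 3 each). P4ha1, the catalytic subunit that pairs with P4hb to hydroxylate collagen, averaged 147 ± 12.2 CPM in the KO libraries and 120 ± 48.2 CPM in the WT libraries. P4hb and P4ha1 thus overlapped between groups. The prolyl isomerase Ppib (log2 fold change -0.49, SE 0.40) and the selenoprotein Selenof (-0.33, SE 0.60) were not called. Mttp, the other known partner of P4hb, had 1 count in the KO libraries and 13 in the WT libraries.

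Of 17 ER genes known to be regulated by ATF6 or XBP1, all tested, 13 were below 0 and 4 above (median -0.66). Below 0 were 51% of all tested genes and 58.4% of those averaging at least 200 CPM. By edgeR 3 were called lower, Hspa5, Hsp90b1 and Hyou1, and none higher, beside 0.22% of all tested genes lower. All 3 average at least 200 CPM, where edgeR called 26 of 818 genes in either direction. Hspa5 and Hsp90b1 are the same calls as among the partners. Manf, a secreted ER factor, had a log2 fold change of -1.09 (SE 0.23; edgeR adjusted p = 0.063), close to that of Pdia4 and likewise called lower by DESeq2. Hyou1, a chaperone that exchanges nucleotide on BiP, had 232, 164 and 193 CPM in KO libraries, against 416, 478 and 484 CPM in WT libraries (edgeR adjusted p = 0.047), a call lost in all 6 fits without 1 library (0.079 to 0.25). Dnajc3, a co-chaperone of BiP, and Atf6 itself had log2 fold changes of -0.75 (SE 0.52) and 0.53 (SE 0.40) and were not called. Xbp1 itself had 197, 220.1 and 143 CPM in KO libraries, against 210.4, 195 and 478 CPM in WT libraries, which overlapped. In WT replicate 3 Pdia4 and Xbp1 were both at their highest of the 6 libraries, while Pdia6 was not. Hspa5, Hyou1, Manf, Dnajc3, Herpud1 and Sec61b of this list were highest there too, and the rest of the list was not. This likeness in 1 library was picked with the values known and was not tested.

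**Figure D5:**
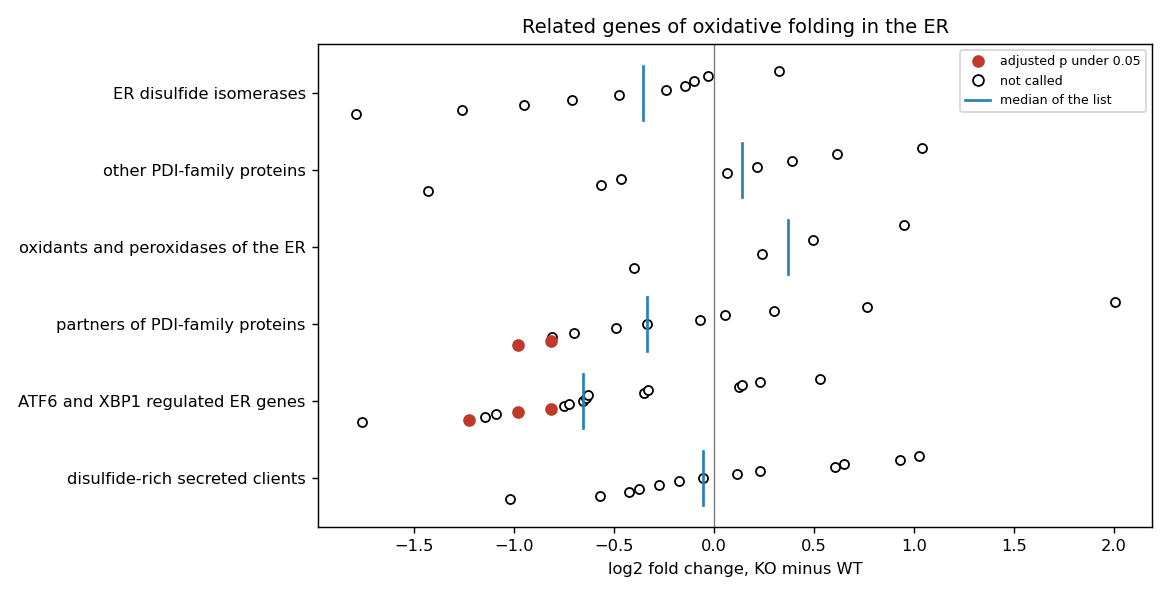
Log2 fold change, KO minus WT, of each tested gene of the disulfide isomerase set and of 5 related lists; filled points had an edgeR adjusted p under 0.05 and blue lines give list medians. The called genes are Hspa5 and Hsp90b1, each in 2 lists, and Hyou1; medians run from -0.66 for ATF6 and XBP1 regulated genes to 0.37 for ER oxidants and peroxidases.

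Secreted and surface proteins rich in disulfides, which are typical substrates, showed no common direction. Of 13 tested, 7 were below 0 and 6 above (median -0.056), 0 were called by edgeR, and at an unadjusted p under 0.05 1 was lower and 2 higher, the 2 that DESeq2 called. Fibronectin (Fn1) had 425, 665 and 644 CPM in KO libraries, against 321, 292 and 237 CPM in WT libraries (log2 fold change 1.03, SE 0.25; edgeR adjusted p = 0.11). The laminin chain Lamb1 had 289, 235 and 305 CPM in KO libraries, against 130, 152 and 154 CPM in WT libraries (0.93, SE 0.29; edgeR adjusted p = 0.36). Their KO libraries lay above every WT library, as did those of Col4a1, beside 6.94% of all tested genes. Those of Tfrc lay below every WT library, the same side as Pdia4 and Pdia6, beside 7.93%. Fn1, Lamb1, Col4a1 and Tfrc average at least 200 CPM, where such separation was more frequent. Of the 818 genes at that level, 89 did not overlap with KO higher and 140 (17.1%) with KO lower. The transferrin receptor Tfrc had a log2 fold change of -0.57 (SE 0.21; edgeR adjusted p = 0.54), and the collagen chain Col4a1 one of 0.61 (SE 0.29; 0.81).

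Among 814 other genes averaging at least 200 CPM, those whose log2 CPM followed the mean of the 10 members most closely over the 6 libraries were Ctnna1 (Pearson r = 0.948), Supt6 (0.945), Cyb5r3 (0.936), Taldo1 (0.919) and Uba1 (0.918). None of them was called by edgeR, and with 6 libraries that share normalisation these values describe likeness only. The mean gives each member the same weight, so counts of 0 weigh heavily in it. Pdia5 was at 0 in KO replicates 2 and 3 and WT replicate 3, and Erp29 in KO replicate 2.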

How the data were processed

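The authors deposited whole-number counts per Ensembl gene for 6 ribosome profiling libraries, not normalized. Per the labels' protocols, reads of 25 to 34 nt were kept, Bowtie served to discard rRNA and tRNA reads and to map to transcripts, and HISAT2 aligned reads to GRCm38. Cutadapt, featureCounts and DESeq2 appear in the submitters' processing notes, without version numbers. Not given in the sources used here are the annotation, the strand setting and how duplicates or multiple matches were treated, so amplified fragments may be counted repeatedly, and intervals for a count of 0 (3 counts) cover counting error only.

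Of the identifiers, 53360 matched GENCODE M21. The main test was edgeR 4.0.16 (R 4.3.3), quasi-likelihood and robust, with TMM factors and filterByExpr, and Benjamini-Hochberg adjustment over 8200 genes with a threshold of 0.05. The common biological coefficient of variation in the main fit was 0.99. CPM use TMM-adjusted library sizes. Standard errors were derived from the F statistic and the unshrunken log2 fold change of the same fit. The 95% intervals are centred on the printed, slightly shrunken log2 fold change and are therefore approximate. The modal count was the peak of a smoothed histogram (bandwidth 3, counts 8 to 150). Coding lengths are those of the longest complete coding sequence. DESeq2 1.42.0 and limma 3.58.1 (voom) were alternatives. The pipeline was tested on simulated counts. Tables and plots used Python 3.11.15.

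The genes, lists, settings and the rule for named genes (all 10 members, Nat10, and from each list the called genes and up to 4 others with the smallest p at 50 CPM or more) were chosen with earlier results of these data known. Also named, for the 5 other genes of like pattern, were those at 200 CPM or more with the highest Pearson r. Canx, Mttp, Ero1lb, Pdia2, Pdilt, Epcam, Thy1, Col1a1, Herpud1, Sec61b and genes sharing exon bases with a member are named outside that rule. They were chosen after their values were seen.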

Additional observations from a re-analysis of the deposited data

How the results depend on the processing

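Counts of calls depended on the test. In place of 33 genes in all, 0 members lower and 3 related genes, DESeq2 called 237, 2 and 7, limma-voom 93, 2 and 6, edgeR with no count filter 91, 2 and 6, and edgeR on molecule equivalents 114, 2 and 6. Related genes called were 2 with DESeq2 size factors, with library totals, with at least 50 counts in 3 libraries, without mitochondrial and the 10 most abundant genes, and with the replicate block, Hyou1 being the call lost each time. In the settings with 2 members called these were Pdia4 and Pdia6 each time, and the cause was not tested. With the replicate number as a block 1 member, Pdia4, was called (adjusted p = 0.041) and 38 genes in all; same-numbered libraries deviated with correlations of -0.017 to -0.0026, so the numbers do not pair the libraries. No member was called higher in any setting. Without single libraries the count of all genes ran from 6 to 29, of related genes from 0 to 1, of members with non-overlapping groups from 2 to 5 (beside 23.1% to 26.1% of all tested genes), and the members' median from -0.46 to -0.11. The 6 genes came without WT replicate 2 or WT replicate 3, the 5 members without WT replicate 3, and the median of -0.11 without KO replicate 2 (-0.16 without WT replicate 2). Signs turned for P4hb (0.0053) and Txndc5 (0.073) with library totals, which moved the median of all genes by 0.11, and for Tmx1 (-0.047) on molecule equivalents. Without single libraries P4hb ran from -0.22 to 0.073, Txndc5 from -0.36 to 0.35, Tmx1 from -0.18 to 0.92 and Ero1a from -0.95 to 0.071. Erp44, Erp29, Ero1a, Pdia5 and Tmx1 averaged 0.638 to 6.14 molecule equivalents, and had wide intervals.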
